A study of Homo sapiens with 18 samples.

Results

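The replication-dependent histone genes are the 69 protein-coding genes of the RefSeq gene table (GRCh38.p14) whose symbols are H2AC, H2BC, H3C or H4C followed by a number, or H1-1 to H1-6, out of 20033 protein-coding genes on chromosomes 1 to 22, X and Y. They comprise 6 H1, 17 H2A, 18 H2B, 13 H3 and 15 H4 genes. Peaks of the AML1-ETO fusion protein were read in each gene and in the 1 kb on either side of it. The peaks came from CUT&RUN, in which a nuclease tethered to an antibody cuts out the DNA at the antibody's target, and that DNA is sequenced. The cells were Kasumi-1, a human leukaemia line with the t(8;21) translocation that creates AML1-ETO, and every group expressed AML1-ETO with a Flag tag. All cells were transduced, and viable GFP-positive cells were sorted 3 days later, either as control or with knockdown of the microRNA miR-130a. The labels do not describe the control vector, and all libraries come from 1 tagged line. Libraries were made with antibodies against ETO, against Flag, or with mouse IgG, in 3 libraries per antibody and condition and 18 in all.

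The comparison of conditions asks whether occupancy by AML1-ETO differs after miR-130a knockdown. The deposited values were peak positions, in 1 list per antibody and condition. The lists held 14264 control anti-ETO, 22594 knockdown anti-ETO, 23162 control anti-Flag and 25961 knockdown anti-Flag peaks. They carried no peak height and no value per library, so the spread between the 3 libraries of a group and the depth behind a call are unknown. No test over libraries was therefore possible, and the counts below describe lists. A difference between 2 lists may be no larger than the spread between libraries. The labels give a planned depth of about 40 M reads per library, from 200000 cells each. Fragments of 150 to 400 bp had been selected for sequencing, and IgG peaks were not analysed here. Peak positions hold no expression values, so the identity of the cell line was not checked.

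Replication-dependent histone genes supply the histones that package newly made DNA, and they are transcribed mainly in S phase. H2A, H2B, H3 and H4 form the core of the nucleosome, and H1 binds the linker DNA between nucleosomes. Most of these genes are short and without introns, and their mRNAs end in a stem-loop bound by SLBP instead of a poly(A) tail. They lie in clusters, and the coactivator NPAT, acting at histone locus bodies, serves their transcription. AML1-ETO binds DNA through the RUNX domain of AML1 and recruits corepressors through ETO.

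The annotation placed the 69 genes in 4 clusters, with members under 1 Mb apart joined. The largest, on chromosome 6 (chr6:25726063-27893891), held 55 genes. A cluster on chromosome 1 (chr1:149782689-149887965) held 11 genes, a smaller one (chr1:228457364-228458558) held H2AC25 and H2BC26, and H4C16 stood alone on chromosome 12 (chr12:14770720-14771131). Gene length ranged from 386 to 29682 bp with a median of 494 bp, and 61 genes were at most 1 kb long. The 8 longer gene models were those of H2BC18, H4C15, H2BC21, H2BC4, H2BC5, H3C4, H3C6 and H2BC12.

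The DNA just upstream of the gene start is shown for the gene of each class with the widest shared peak (a peak called by both antibodies and shared by the conditions in the authors' list), and for 3 genes without any peak. RefSeq promoters (GRCh38.p14; 250 bases before to 50 after the start) were matched for 64 of the 69 genes, with H4C1, H4C3, H2AC12, H3C11 and H3C12 unmatched. Each line gives the 150 bases before the start, 5′ to 3′ in the direction of the gene. Capitals mark matches on either strand to 6 motifs: RUNX (TGTGGT), octamer (ATTTGCAT), CCAAT box (CCAAT), TATA box (TATAAA), the core of site II of H4 genes (GGTCCG) and ETS (CCGGAAG).
H1-5 (chr6:27867589-27867738, minus strand): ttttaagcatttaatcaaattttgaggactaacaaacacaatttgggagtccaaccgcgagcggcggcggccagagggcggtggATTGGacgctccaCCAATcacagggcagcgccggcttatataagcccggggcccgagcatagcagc
H2AC16 (chr6:27865167-27865316, plus strand): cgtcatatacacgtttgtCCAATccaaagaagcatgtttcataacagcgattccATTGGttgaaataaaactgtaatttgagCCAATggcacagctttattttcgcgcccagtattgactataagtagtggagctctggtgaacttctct
H2BC5 (chr6:26157971-26158120, plus strand): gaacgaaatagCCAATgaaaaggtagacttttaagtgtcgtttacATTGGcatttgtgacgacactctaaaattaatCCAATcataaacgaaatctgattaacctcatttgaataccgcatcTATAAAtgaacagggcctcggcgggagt
H3C2 (chr6:26032100-26032249, minus strand): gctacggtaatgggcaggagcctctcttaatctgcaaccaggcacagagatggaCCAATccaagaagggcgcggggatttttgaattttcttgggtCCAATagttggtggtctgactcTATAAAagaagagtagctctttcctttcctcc
H4C2 (chr6:26027284-26027433, minus strand): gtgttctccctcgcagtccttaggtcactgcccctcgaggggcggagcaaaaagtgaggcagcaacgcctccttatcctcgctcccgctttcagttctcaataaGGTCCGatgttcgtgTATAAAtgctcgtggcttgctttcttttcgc
H2AC25 (chr1:228457874-228458023, minus strand): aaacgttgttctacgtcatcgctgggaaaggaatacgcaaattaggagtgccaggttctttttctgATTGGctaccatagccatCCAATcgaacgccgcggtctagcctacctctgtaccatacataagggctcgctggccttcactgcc
H2BC1 (chr6:25726627-25726776, plus strand): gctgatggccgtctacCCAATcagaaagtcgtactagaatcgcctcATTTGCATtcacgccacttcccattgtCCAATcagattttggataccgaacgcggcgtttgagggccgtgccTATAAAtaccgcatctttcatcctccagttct
H4C16 (chr12:14771132-14771281, minus strand): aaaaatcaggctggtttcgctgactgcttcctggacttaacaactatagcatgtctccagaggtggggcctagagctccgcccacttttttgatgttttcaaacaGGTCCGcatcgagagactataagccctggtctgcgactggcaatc
The first 5 lines belong to genes with a peak in all 4 lists and the last 3 to genes without one. The widest shared peak covered the start of H1-5 and H4C2 and came within 57 bp of that of H2AC16 and 167 bp of that of H3C2. For H2BC5, a gene model of 13229 bp, it lay 12592 bp from the start, at the far end of the gene, so this line does not show DNA near that peak. None of these 8 windows held the RUNX or ETS letters, while CCAAT, TATA box and site II letters stood in genes with and without peaks. H2BC1 alone held an octamer, and both H4 genes held GGTCCG on the strand of the gene, the peak-bearing H4C2 as well as the peak-free H4C16.

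Most histone genes had AML1-ETO peaks. A control anti-ETO peak was found for 53 of the 69 genes (76.8%), against 41.0% of all protein-coding genes by the same rule. A knockdown anti-ETO peak was found for 57 (82.6%), against 47.7%. A control anti-Flag peak was also found for 57 (82.6%), against 43.7%, and a knockdown anti-Flag peak for 45 (65.2%), against 36.3%. A peak in all 4 lists was found for 43 genes (62.3%), against 30.9% of all protein-coding genes, and 11 genes had none in any list (15.9%, against 47.3%). In the authors' combined lists of peaks supported by both antibodies, 52 histone genes had a control peak (75.4%, against 37.4%) and 45 a knockdown peak (65.2%, against 33.6%).

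Long genes offer more room for a peak than short ones, so the 467 other protein-coding genes of at most 1 kb are given as a further background. Of these, 7.49% had a control anti-ETO, 9.42% a knockdown anti-ETO, 9.64% a control anti-Flag and 8.78% a knockdown anti-Flag peak. A peak in all 4 lists was found for 6.0% of them and in none for 88.0%. The 61 histone genes of that length had them in 45, 49, 49 and 40 cases. Peaks covered 27.7% (control anti-ETO), 37.5% (knockdown anti-ETO), 36.0% (control anti-Flag) and 22.3% (knockdown anti-Flag) of the 126 kb formed by these 61 genes and their flanks. The same measure was 1.86%, 2.93%, 2.64% and 1.95% for the 467 other short genes.

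**Figure D1:**
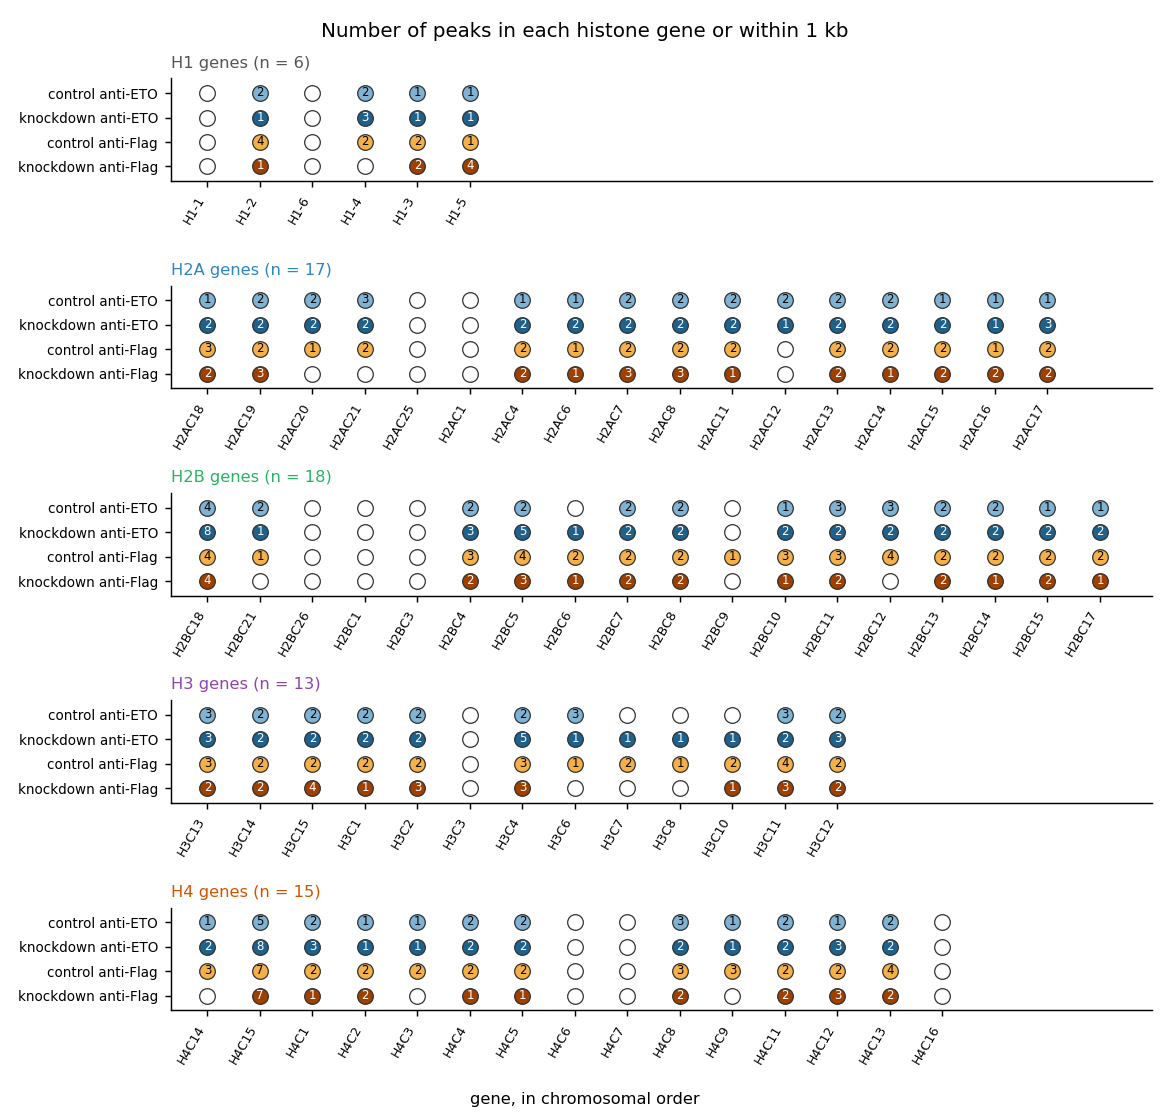
Each circle is 1 histone gene in 1 peak list, with the number of peaks in the gene or within 1 kb; open circles stand for 0 peaks, rows are the 4 lists and columns the genes of a class in chromosomal order. Of the 69 genes, 43 are filled in all 4 rows and 11 in none, and the bottom row (knockdown anti-Flag) has the fewest filled circles, 45.

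H1-2, H1-3 and H1-5 had peaks in all 4 lists. H1-4 had 2 control anti-ETO, 3 knockdown anti-ETO and 2 control anti-Flag peaks but no knockdown anti-Flag peak, the nearest of which lay 2328 bp away. H1-1 and H1-6 had no peak in any list, and H1-6 encodes the testis-specific H1. The whole of H1-2 (chr6:26055740-26056470) lay inside peaks in each of the 4 lists. H1-5 (chr6:27866792-27867588) was also 100% covered in 3 lists and 65.0% covered by knockdown anti-Flag peaks.

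H1-5 and its neighbour H2AC16 shared the widest peak at any histone gene, a shared peak of 2860 bp (chr6:27865374-27868233). It was 1 peak of 2673 bp for control anti-ETO, 1 of 2463 bp for knockdown anti-ETO and 1 of 2781 bp for control anti-Flag. For knockdown anti-Flag it was broken into 4 peaks of 327, 727, 257 and 504 bp. The same place was thus called in all 4 lists, with the narrowest coverage in the last. The next widest shared peaks lay at H2BC5 (2823 bp, chr6:26170713-26173535), H1-2 (2601 bp, chr6:26054335-26056935), H4C2 (2441 bp, chr6:26025697-26028137), and H3C2 and H2AC4 (2298 bp, chr6:26032266-26034563). H2BC5 also had the widest knockdown anti-ETO peak (2638 bp) and the widest knockdown anti-Flag peak (2170 bp) at any histone gene.

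Single peaks could span several genes. Of the shared peaks, 4 reached 3 histone genes each with the flanks counted. They were a peak of 1141 bp at H4C15, H2AC19 and H3C15 (chr1:149851244-149852384), peaks of 1175 and 1212 bp at H3C4, H2AC7 and H2BC7 (chr6:26198049-26199223 and chr6:26199477-26200688), and a peak of 852 bp at H2BC13, H2AC13 and H3C10 (chr6:27808226-27809077). The numbers of peaks at histone genes were 67 (control anti-ETO), 85 (knockdown anti-ETO), 95 (control anti-Flag) and 63 (knockdown anti-Flag). Their median widths were 455, 554, 515 and 391 bp, against 461, 453, 416 and 364 bp over the whole lists.

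Of the 17 H2A genes, 15 had a control and 15 a knockdown anti-ETO peak, 14 a control and 12 a knockdown anti-Flag peak, and 12 had all 4. H2AC1, which encodes a testis form of H2A, and H2AC25 had none. H2AC12 was the only histone gene with anti-ETO peaks in both conditions and no anti-Flag peak in either. Its nearest anti-Flag peak lay 1928 bp away in control and 13680 bp away in knockdown. H2AC20 and H2AC21, neighbours on chromosome 1, had peaks in every list except knockdown anti-Flag. H2AC4 had the most complete coverage of this class, with 100%, 96.2%, 97.9% and 98.1% of the gene inside control anti-ETO, knockdown anti-ETO, control anti-Flag and knockdown anti-Flag peaks.

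Of the 18 H2B genes, 13 had a control and 14 a knockdown anti-ETO peak, 15 a control and 12 a knockdown anti-Flag peak, and 11 had all 4. H2BC1, which encodes a testis form of H2B, H2BC3 and H2BC26 had none. H2BC9 had a control anti-Flag peak alone, and H2BC6 lacked only a control anti-ETO peak. H2BC21 and H2BC12 lacked only a knockdown anti-Flag peak. H2BC7 was the most completely covered short gene of the class, at 100%, 100%, 100% and 96.8% in the same order of lists.

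Of the 13 H3 genes, 9 had a control and 12 a knockdown anti-ETO peak, 12 a control and 9 a knockdown anti-Flag peak, and 8 had all 4. H3C3 had none. H3C7, H3C8 and H3C10 had an anti-ETO peak in knockdown and not in control, which among the other histone genes was seen for H2BC6 alone. H3C7 and H3C8 also lacked a knockdown anti-Flag peak, so they had only knockdown anti-ETO and control anti-Flag peaks. H3C6 lacked only a knockdown anti-Flag peak.

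Of the 15 H4 genes, 12 had a peak in each of control anti-ETO, knockdown anti-ETO and control anti-Flag, 9 had one in knockdown anti-Flag, and 9 had all 4. H4C6, H4C16 and H4C7, an H4 gene of diverged sequence, had none. H4C14, H4C3 and H4C9 lacked only a knockdown anti-Flag peak. Peaks covered much of the gene itself in this class. Among the 14 H4 genes of at most 1 kb the median was 80.2% in control anti-ETO, 79.4% in knockdown anti-ETO, 77.8% in control anti-Flag and 56.6% in knockdown anti-Flag, and the median over all 61 short histone genes was 67.2%, 71.2%, 65.0% and 0.0%. At least 50% of the gene lay inside peaks for 11, 11, 11 and 7 of these 14 genes. Over the 61 genes the number was 35, 36, 34 and 21, while 2.57%, 2.78%, 3.0% and 2.14% of the 467 other short genes reached it.

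**Figure D2:**
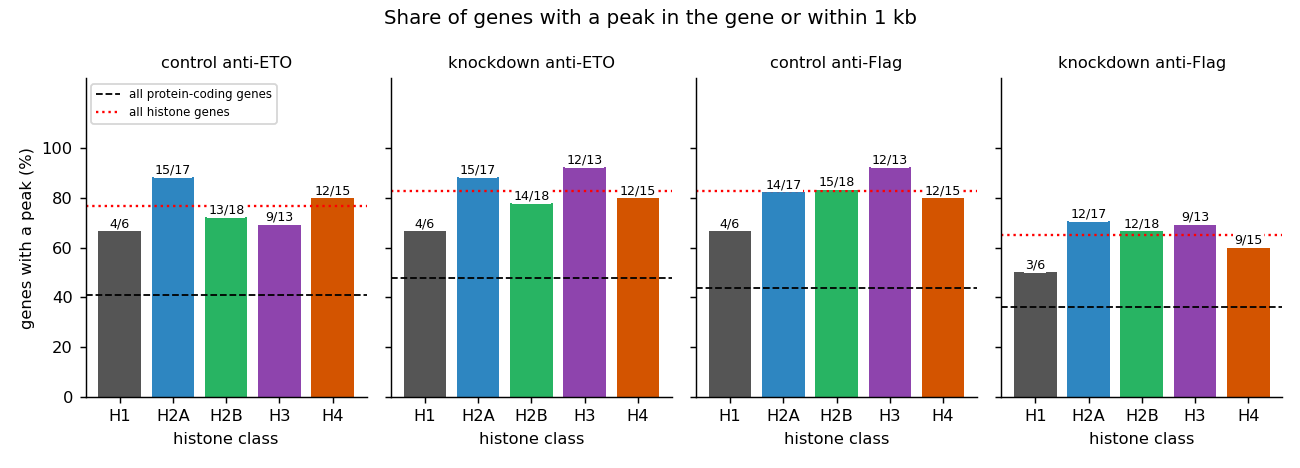
Bars give the percentage of genes of each histone class with a peak in the gene or within 1 kb, with counts above them, in 1 panel per list; the dashed line is the share of all protein-coding genes and the dotted line that of all 69 histone genes. Every bar lies above the dashed line, and the lowest is H1 in knockdown anti-Flag (3 of 6 genes).

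The calls differed by position within the clusters. With members over 250 kb apart separated, the chromosome 6 cluster fell into 4 blocks. In the block with 16 genes (chr6:27807479-27893891), all 16 genes had a peak in knockdown anti-ETO, control anti-Flag and knockdown anti-Flag, and 15 had one in control anti-ETO, H3C10 being the exception. In the block with 32 genes (chr6:26017032-26285534), 19 genes had all 4 and 6 had none (H1-1, H2BC3, H3C3, H1-6, H4C6 and H4C7). In the block with 5 genes (chr6:27132316-27147562), H2BC11 and H2AC11 had all 4, and H2BC12, H4C9 and H2AC12 did not. The block formed by H2AC1 and H2BC1 had no peak, and the nearest in any list was a control anti-Flag peak 261616 bp from H2BC1.

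All 11 genes of the large chromosome 1 cluster had both anti-ETO peaks and a control anti-Flag peak, and 7 had a knockdown anti-Flag peak. H2AC25, H2BC26 and H4C16, outside the 2 large clusters, had no peak in any list. The nearest peak of any list lay 28753 bp from H2AC25, 28068 bp from H2BC26 and 113458 bp from H4C16. Of the 21 other protein-coding genes between the histone genes, 5 had a control anti-ETO, 6 a knockdown anti-ETO, 6 a control anti-Flag and 4 a knockdown anti-Flag peak, and 13 had none. These are 23.8%, 28.6%, 28.6%, 19.0% and 61.9%, against 41.0%, 47.7%, 43.7%, 36.3% and 47.3% of all protein-coding genes. The 13 include HFE and the BTN genes of the chromosome 6 cluster, while TRIM38, HMGN4 and 2 genes that overlap H2BC18 (FCGR1A and LOC124904411) had peaks in all 4 lists.

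Some copies have identical or nearly identical promoters. The promoters of H4C14 and H4C15 were identical over 300 bases, those of H3C14 and H3C15 over 296 bases, and those of H2AC18 and H2AC19 over 299 bases when aligned with a shift of at most 20 bases. H4C11 and H4C12 matched at 98.3% of 300 bases. Short reads from such copies may have been placed at either, and how the authors treated them is not given in the sources used here. Calls at these 8 genes are uncertain to that extent, and peaks at H4C14 and H4C15, which differed in knockdown anti-Flag (0 and 7 peaks), are among them. The sequences of the genes themselves were not compared, so calls at other histone genes may be uncertain in the same way. H4C15 has a gene model of 16753 bp, against 396 bp for H4C14.

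Control and knockdown lists differed in opposite directions for the 2 antibodies. For anti-Flag, 45 histone genes had a peak in both conditions (65.2%, against 33.5% of all protein-coding genes), 12 had one in control and none in knockdown, and 0 had one in knockdown and none in control. Over all protein-coding genes, 10.2% had an anti-Flag peak in control alone and 2.77% in knockdown alone, while the shares among histone genes were 17.4% and 0.0%. These shares are of all genes, and histone genes had control peaks more often. Of the 57 histone genes with a control anti-Flag peak, 12 had none in knockdown. This is a similar part to the 2037 of 8755 protein-coding genes with a control anti-Flag peak. For anti-ETO, 53 had a peak in both conditions (76.8%, against 39.1%), 4 had one in knockdown and none in control, and 0 the reverse. Over all protein-coding genes, 8.53% had an anti-ETO peak in knockdown alone and 1.86% in control alone. The anti-Flag difference of 12 genes was between 9 and 16 genes, with fewer in knockdown, under the alternatives tried. The anti-ETO difference of 4 genes in favour of knockdown turned to 4 in favour of control when all 4 lists were shortened to the 14264 widest peaks.

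The 12 genes with an anti-Flag peak in control alone were H4C14, H2BC21, H2AC20, H2AC21, H4C3, H1-4, H3C6, H3C7, H2BC9, H3C8, H2BC12 and H4C9. They included 1 H1, 2 H2A, 3 H2B, 3 H3 and 3 H4 genes. Of these 12, 9 had peaks in all 3 other lists. Of the 2037 protein-coding genes with an anti-Flag peak in control alone, 1230 had that pattern. Taken over all genes, it was held by 9 of 69 histone genes and 6.14% of protein-coding genes. H2BC21, H2AC20 and H2AC21 lie side by side at the end of the large chromosome 1 cluster, and the nearest knockdown anti-Flag peak lay 23399, 25858 and 26409 bp from them. H2BC12 and H4C9 overlap, and their nearest knockdown anti-Flag peaks lay 4867 and 5856 bp away.

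H4C3 (chr6:26103933-26104337) shows the pattern in a single gene. Its coverage within the gene and 1 kb on either side was 455 bp by control anti-ETO, 430 bp by knockdown anti-ETO, 643 bp by control anti-Flag and 0 bp by knockdown anti-Flag peaks. The first 3 lists placed a peak over the same part of the gene (chr6:26103996-26104450, chr6:26104023-26104452 and chr6:26103985-26104452). The nearest knockdown anti-Flag peak was 18085 bp away. H4C14 (chr1:149832657-149833052) had 802, 901, 1457 and 0 bp in the same order. H4C9 (chr6:27139282-27139678) had 792, 359, 1261 and 0 bp, and H1-4 (chr6:26156329-26157115) had 615, 1198, 832 and 0 bp. In all 4 genes both anti-ETO lists and the control anti-Flag list held peaks.

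Covered length was compared as well. Of the 45 histone genes with an anti-Flag peak in both conditions, 40 (88.9%) had fewer bases covered in knockdown and 5 (11.1%) had more, against 63.6% and 36.1% of 6718 protein-coding genes. Of the 53 histone genes with an anti-ETO peak in both conditions, 38 (71.7%) had more bases covered in knockdown and 15 (28.3%) had fewer, against 83.0% and 16.2% of 7840. With genes called in a single condition included, the counts are as follows. Of the 57 histone genes with an anti-Flag peak in either condition, 52 (91.2%) had fewer bases covered in knockdown and 5 had more (8.77%), the 52 including the 12 without a knockdown peak. Of the 9310 protein-coding genes with an anti-Flag peak in either condition, 67.8% had fewer and 32.0% more. The 5 with more were H2AC19, H3C15, H2BC5, H3C12 and H2AC17. Of the 57 histone genes with an anti-ETO peak in either condition, 42 (73.7%) had more bases covered in knockdown and 15 fewer (26.3%). Among 9922 protein-coding genes the shares were 82.8% and 16.6%. For anti-ETO the median covered length of these genes went from 1004 bp (control) to 1211 bp (knockdown), and for anti-Flag from 1305 to 784 bp. By class, fewer anti-Flag bases were covered in knockdown at 4 of 4 H1, 12 of 14 H2A, 14 of 15 H2B, 10 of 12 H3 and 12 of 12 H4 genes. More anti-ETO bases were covered at 4 of 4 H1, 8 of 15 H2A, 11 of 14 H2B, 10 of 12 H3 and 9 of 12 H4 genes. Both knockdown lists as a whole hold more peaks than the control ones, at 22594 against 14264 for anti-ETO and 25961 against 23162 for anti-Flag. Their summed widths were 15.0 against 8.97 Mb for anti-ETO and 13.2 against 13.5 Mb for anti-Flag. The part of list length in these differences was not tested beyond the shortened lists.

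**Figure D3:**
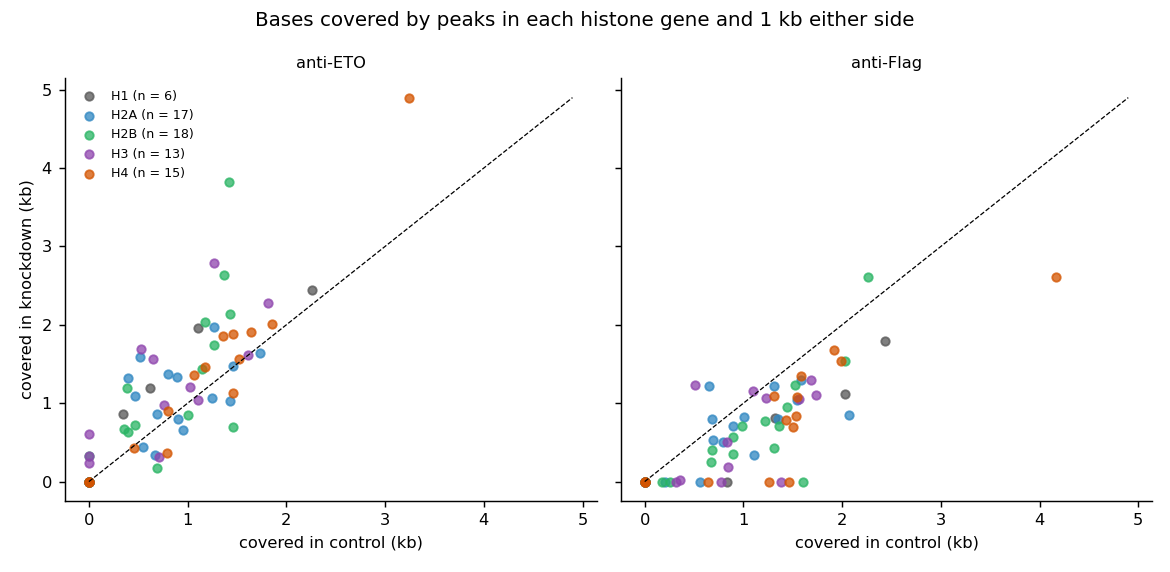
Each point is 1 histone gene, placed by the kilobases covered by peaks in the gene and 1 kb on either side in control (horizontal axis) and in knockdown (vertical axis), for anti-ETO on the left and anti-Flag on the right; colours give the class and the dashed line equal coverage. For anti-Flag 52 of 57 genes with a peak lie below the line, and for anti-ETO 42 of 57 lie above it.

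The authors also sorted the peaks called by both antibodies by condition. A shared peak, present in both conditions, was found for 42 of the 69 histone genes (60.9%), against 29.4% of all protein-coding genes. A control-unique peak was found for 19 genes (27.5%, against 12.3%) and a knockdown-unique peak for 12 (17.4%, against 12.3%). Of the other short genes, 6.21% had a shared, 1.71% a control-unique and 0.857% a knockdown-unique peak. The same gene can have peaks of several kinds. By gene, 8 histone genes had a peak of both antibodies in control and none in knockdown (11.6%, against 7.2%), and 1 the reverse (1.45%, against 3.46%). Taken over the genes with such a control peak, the loss was at 8 of 52 histone genes and 1443 of 7486 protein-coding genes. By class, control-unique peaks were found at 7 of 15 H4, 4 of 13 H3, 4 of 18 H2B, 3 of 17 H2A and 1 of 6 H1 genes. Knockdown-unique peaks were found at 5 of 18 H2B, 3 of 17 H2A, 2 of 13 H3, 2 of 15 H4 and 0 of 6 H1 genes.

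The 19 genes with a control-unique peak had 17 such peaks between them, some lying at 2 genes. In knockdown, each of the 17 overlapped a peak of the anti-ETO list and none a peak of the anti-Flag list. In the whole control-unique list, 74.7% of 3059 peaks had an anti-ETO call alone in knockdown, and 20.2% had neither call. On chromosome 1 the 17 included 2 peaks at H2BC18, 1 at H3C13 (356 bp, chr1:149813822-149814177), 1 at H4C14 (1108 bp, chr1:149832734-149833841), 1 at H4C15 (995 bp), 1 at H2AC20 and H2AC21 (272 bp) and 1 at H2AC21 alone (643 bp). The 2 at H2BC18 (chr1:149787568-149788399 and chr1:149792408-149793002) also lie inside FCGR1A (chr1:149782694-149800609). They count here through the H2BC18 gene model of 29682 bp, whose start is at chr1:149812370. On chromosome 6 the widest lay at H3C6 (1382 bp, chr6:26223250-26224631), at H2BC12 and H4C9 (823 bp) and at H1-4 (821 bp, chr6:26155701-26156521). The others lay at H3C1 and H4C1 (586 bp), H2AC17 and H2BC17 (544 bp), H4C3 (468 bp), H3C12 (435 bp), H1-4 and H2BC5 (402 bp), H4C4 (208 bp) and H4C5 (196 bp).

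The 12 genes with a knockdown-unique peak had 9 such peaks between them. In control, 5 of the 9 overlapped an anti-Flag peak alone, 4 overlapped neither antibody's peaks and 0 overlapped an anti-ETO peak. In the whole knockdown-unique list, these shares were 55.1%, 38.1% and, for anti-ETO alone, 5.83% of 4617 peaks. The 5 with a control anti-Flag call lay at H4C15 and H3C15 (838 bp), H2BC5 (649 bp), H2BC6 (412 bp), H4C12 (386 bp), and H2AC17 and H2BC17 (527 bp). The 4 without any control call lay at H2BC18 (953 bp), H4C15 and H2AC19 (321 bp), H2AC15 and H2BC15 (1006 bp, chr6:27836810-27837815), and H3C12 and H2AC17 (1086 bp, chr6:27891008-27892093). H2AC17 and H2BC17 thus had peaks unique to each condition and no shared peak. The knockdown-unique peak at H2BC18 (chr1:149782205-149783157) also overlaps FCGR1A. It lies at the end of the 29682 bp gene model that is far from the H2BC18 start.

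Taken over the histone genes as a set, peaks lay beside the start more often than over it. For the 64 genes with a RefSeq start, the base 250 bp into the gene was inside a control anti-ETO peak for 38 genes (59.4%), whereas the base 100 bp upstream of the start was inside one for 6 (9.38%). Farther upstream coverage was higher again, with 25 genes (39.1%) at 350 bp. The knockdown anti-ETO list showed the same order of values: 42 genes (65.6%) at 350 bp into the gene, 5 (7.81%) at 100 bp upstream and 30 (46.9%) at 450 bp upstream. For control anti-Flag the values were 37 genes (57.8%) at 350 bp into the gene, 6 (9.38%) at 50 bp upstream and 30 (46.9%) at 350 bp upstream. For knockdown anti-Flag they were 25 (39.1%) at 250 bp, 2 (3.12%) at 50 bp upstream and 17 (26.6%) at 500 bp upstream. These positions are the highest and lowest points of each curve, chosen from the curves themselves.

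At fixed positions the start itself was inside a peak for 11, 9, 9 and 2 of the 64 genes in control anti-ETO, knockdown anti-ETO, control anti-Flag and knockdown anti-Flag, in that order. Over 15842 protein-coding genes the start was covered in 19.5%, 23.6%, 16.8% and 10.1%, above the histone genes' 17.2%, 14.1%, 14.1% and 3.12%. At 200 bp into the gene, 37, 39, 33 and 23 histone genes were covered (57.8%, 60.9%, 51.6% and 35.9%), against 22.1%, 28.4%, 22.4% and 16.5% of all genes. At 400 bp into the gene the values were 33, 39, 37 and 22 histone genes (51.6%, 60.9%, 57.8% and 34.4%) against 14.3%, 20.4%, 16.1% and 11.7% of all genes. Protein-coding genes in general also had a dip near the start, at 17.7%, 21.4%, 14.7% and 8.68% at 50 bp upstream, and their maxima of 25.2%, 31.2%, 24.7% and 18.1% lay at 100 to 150 bp into the gene.

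**Figure D4:**
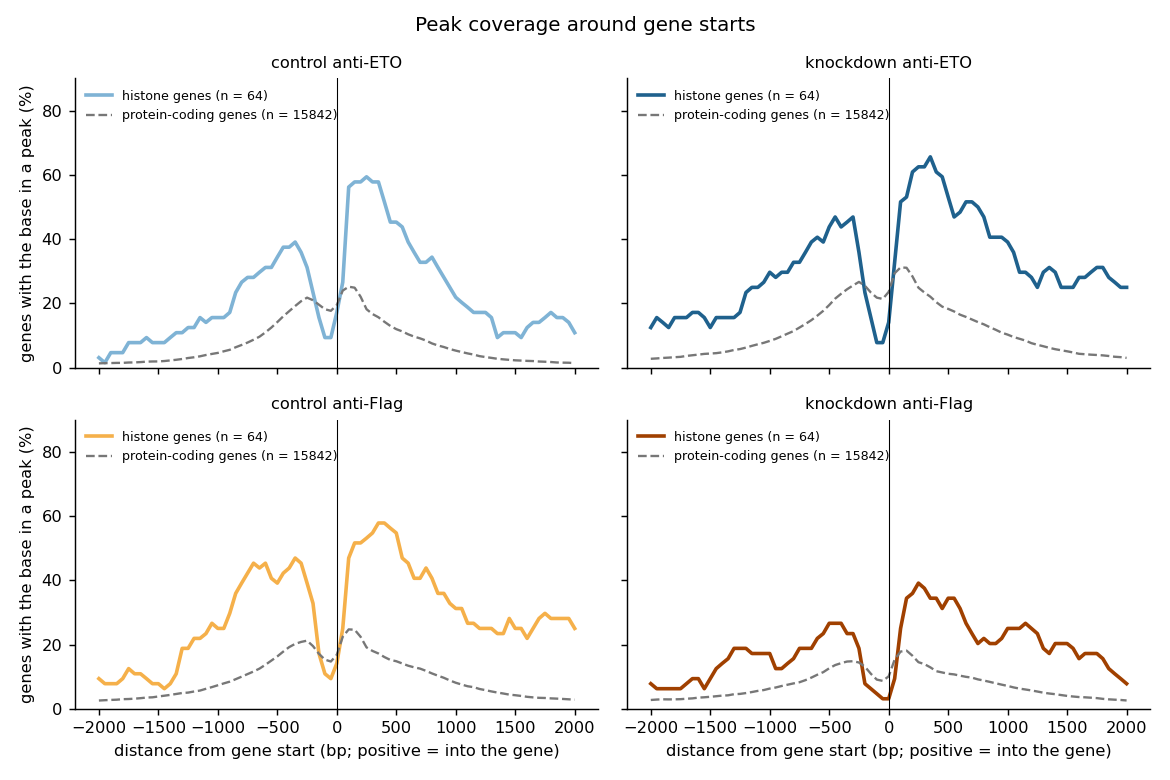
Each panel plots, for 1 list, the percentage of genes whose base at a given distance from the gene start lies inside a peak, in steps of 50 bp (solid line, 64 histone genes; dashed line, 15842 protein-coding genes). The solid lines drop to between 3.12% and 9.38% just upstream of the start and reach 39.1% to 65.6% inside the gene.

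The classes differed in how low the coverage at the start was. No H2A gene of 16 had its start inside a knockdown anti-ETO, control anti-Flag or knockdown anti-Flag peak, and 1 had it inside a control anti-ETO peak. Of 13 H4 genes, 3, 2, 1 and 0 had the start covered in the 4 lists in the order above, although 10, 10, 10 and 8 were covered 200 bp into the gene. The H1 genes were the exception, with the start covered in 3, 3, 4 and 2 of 6 genes, and no more than 4 H1 genes had any peak.

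Many H2A and H2B genes stand head to head and share the DNA between their starts. Among the 64 genes with a RefSeq start there were 12 such neighbouring pairs with starts at most 1000 bp apart, 11 of an H2A with an H2B gene and 1 of H3C7 with H2BC9. The 5 genes without a matched start, including H2AC12 beside H2BC12, could not be paired. The median spacer between the starts was 237 bp. No peak touched the spacer in 10 pairs for control anti-ETO, 10 for knockdown anti-ETO, 9 for control anti-Flag and 12 for knockdown anti-Flag, and in no list was a spacer fully covered. The mean share of the spacer covered was 2.08%, 0.728%, 4.07% and 0.0%. Of the 24 genes in these pairs, 12, 14, 15 and 8 had a peak in the 400 bp after the start, and the mean coverage of those 400 bp was 39.2%, 44.7%, 40.3% and 20.4%. Both genes of a pair had such a peak in 3, 6, 6 and 0 pairs, and the spacer between them was free of peaks in 2, 4, 6 and 0. Pairs without any peak, H2AC25 with H2BC26 and H2AC1 with H2BC1, count among those with an empty spacer.

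H2BC13 (chr6:27807479-27807929) and H2AC13 (chr6:27808173-27808667) are a pair with peaks in both genes in every list except knockdown anti-Flag. The 243 bases between their starts are printed on the plus strand with the same motifs in capitals.
Spacer of H2BC13 and H2AC13 (chr6:27807930-27808172, plus strand): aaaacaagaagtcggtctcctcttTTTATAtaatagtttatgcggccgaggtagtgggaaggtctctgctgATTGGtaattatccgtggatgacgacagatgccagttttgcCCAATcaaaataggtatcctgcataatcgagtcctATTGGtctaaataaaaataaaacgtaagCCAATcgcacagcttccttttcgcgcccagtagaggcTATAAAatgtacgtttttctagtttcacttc
The spacer held 4 CCAAT boxes and 2 TATA boxes, 1 for each direction, and no RUNX letters. To its left a control anti-ETO peak covered 94.9% of H2BC13 and to its right another covered 78.8% of H2AC13, with 0.0% of the spacer covered. Knockdown anti-ETO peaks covered 100% of H2BC13, 89.3% of H2AC13 and 2.88% of the spacer. Control anti-Flag peaks covered 95.6% and 79.6% of the genes and 0.0% of the spacer. Knockdown anti-Flag peaks covered 0.0% of H2BC13, 68.5% of H2AC13 and 0.0% of the spacer.

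**Figure D5:**
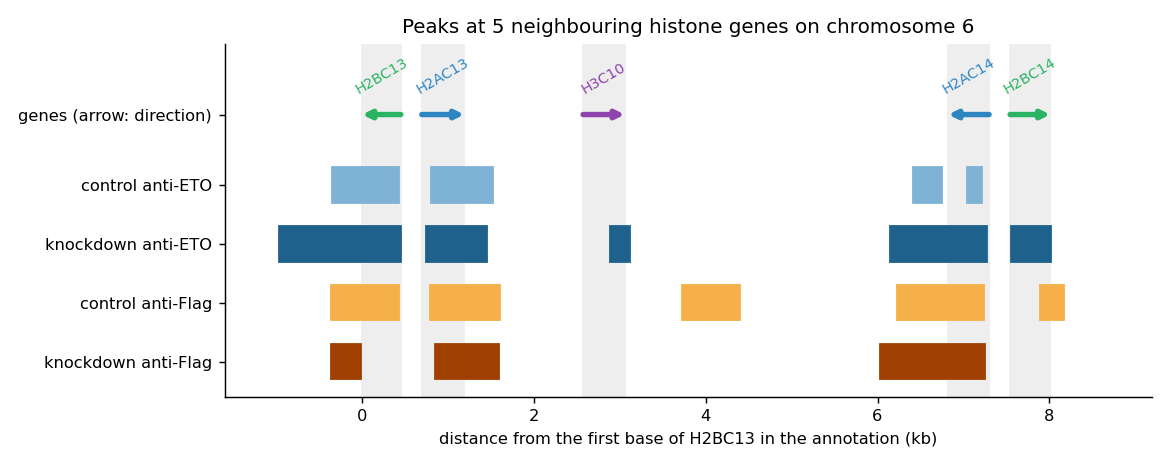
Coloured bars are peaks of the 4 lists over 5 neighbouring histone genes on chromosome 6, with distance in kb from the first annotated base of H2BC13 on the horizontal axis; arrows give the genes' direction and grey bands their extent. The gap between the H2BC13 and H2AC13 bands, a spacer of 243 bp, holds no control anti-ETO, control anti-Flag or knockdown anti-Flag peak.

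The promoter motifs differed by histone class. The octamer, the site of POU2F1 (OCT1) in H2B promoters, stood in 14 of 18 H2B and 11 of 16 H2A promoters, in 1 of 11 H3, 0 of 6 H1 and 0 of 13 H4 promoters, against 1.7% of 15842 protein-coding promoters. The 1 H3 case was H3C4, whose listed start is that of H2AC7, so their promoters are the same 300 bases. Windows of head-to-head genes overlap, so 1 match can count for more than 1 gene. The octamer between H2BC4 and H2AC6, for example, counts for both classes. GGTCCG, the core of the H4 element bound by HINFP, stood in 12 of 13 H4 promoters and in 3 of the other 51, against 14.5%. CCAAT stood in 54 of 64 promoters (84.4%, against 36.4%), and in 3 of 13 in the H4 class. TATAAA stood in 42 of 64 (65.6%, against 9.63%), and CCGGAAG in 4 of 64 (6.25%, against 14.2%).

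The RUNX letters TGTGGT, the sequence read by the DNA-binding domain of AML1-ETO, stood in 9 of 64 histone promoters (14.1%, against 10.8% of all). The 9 genes were H2AC1, H2BC1, H3C2, H4C4, H3C4, H2AC7, H2BC7, H2BC10 and H2AC11. Of these, 7 had a peak in all 4 lists and 2 (H2AC1 and H2BC1) had none. The 9 are not separate sites, since 1 match between H2AC7 and H2BC7 counts for both of them and for H3C4. Of the 26 promoters with an octamer, 17 belonged to genes with all 4 lists and 3 to genes without any. Histone promoters had a median GC content of 43.2% (range 36.3 to 58.0), against 62.7% for all protein-coding promoters. Matches are letters in a window of 300 bases and say nothing on whether a factor was bound there.

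Genes whose products act on histone genes or histones were read in the same way. Of 19 genes for histone gene transcription and mRNA processing, 12 had a control anti-ETO, 17 a knockdown anti-ETO, 14 a control anti-Flag and 11 a knockdown anti-Flag peak, and 8 had all 4. These are 63.2%, 89.5%, 73.7%, 57.9% and 42.1%, against 41.0%, 47.7%, 43.7%, 36.3% and 30.9% of all protein-coding genes. NPAT, SLBP, LSM10 (a part of the U7 particle that cuts histone mRNA) and CCNE2 had all 4. HINFP had 0 control anti-ETO, 3 knockdown anti-ETO, 1 control anti-Flag and 2 knockdown anti-Flag peaks, and CSTF2 had none. CDK2, whose kinase activates NPAT, had 2, 3, 2 and 0 peaks and thus no knockdown anti-Flag peak.

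Of 13 histone chaperone genes, 10, 12, 10 and 7 had a peak in control anti-ETO, knockdown anti-ETO, control anti-Flag and knockdown anti-Flag. These are 76.9%, 92.3%, 76.9% and 53.8%, against the same 41.0%, 47.7%, 43.7% and 36.3%. All 4 lists had a peak at 7 of them (53.8%, against 30.9%), CHAF1A and ASF1B included. CHAF1B had none, and NASP had 1, 3, 1 and 0 peaks. Among the replication-independent histone genes, H2AX, H2AZ1, H2AZ2, H3-3A and H3-3B had peaks in all 4 lists, whereas MACROH2A1, MACROH2A2 and H2AJ had none. The genes of these lists are mostly longer than the replication-dependent ones, so the counts are not on the same footing.

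The counts depend on the 1 kb flank. In the gene alone, 47 genes had a control anti-ETO, 50 a knockdown anti-ETO, 50 a control anti-Flag and 34 a knockdown anti-Flag peak, 10 had a control-unique and 4 a knockdown-unique peak. With a flank of 5 kb the counts were 58, 61, 62, 52, 26 and 19. Shares of all protein-coding genes were computed with the 1 kb flank alone. The counts at other flanks therefore have no background beside them and do not show whether histone genes stand out there. Distances here are from the gene to the nearest peak. The farthest peak still counted was the knockdown anti-Flag peak of H3C10, at 980 bp. The nearest not counted were the knockdown anti-ETO peak of H2BC9, at 1015 bp, and the control anti-ETO peak of H3C10, at 1044 bp.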

How the data were processed

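The CUT&RUN libraries were grouped by condition and antibody from the sample titles. The deposited files are 9 interval lists without a header, whose 3 columns give the position of each peak and no height or read number. The submitters' processing notes name fastp 0.19.5, Bowtie2 2.3.5, MACS2 2.2.5 and HOMER 4.8, and the builds hg38 and sacCer3, with no role or order. The threshold, the use of IgG and the pooling of replicates are not given in the sources used here. A more permissive threshold may place peaks at more genes. List length and the number of genes reached did not always go together. The longest list, knockdown anti-Flag with 25961 peaks, reached 36.3% of all protein-coding genes. The shortest, control anti-ETO with 14264 peaks, reached 41.0%. These lists differ in antibody and condition as well as length. Within anti-ETO the longer list, knockdown with 22594 peaks, reached more genes than control, at 47.7%. Within anti-Flag the shorter list, control with 23162 peaks, reached more than knockdown, at 43.7%.

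Members and lists were chosen with earlier results of these data known. A peak was assigned to every gene that it reached by at least 1 bp, flanks of 1 kb included. Gene positions came from the RefSeq table of GRCh38.p14, and starts, strands and promoter sequences from RefSeq promoters of that build, the first listed where several were given (4 histone genes had 2). Named were all members with a unique peak, all whose set of lists was not the commonest of their class, those outside the largest cluster, and the widest peaks. The genes most fully covered and the H2BC13 and H2AC13 pair were chosen after their values were seen. Shares are of genes and carry no interval, since the genes are a complete set and not a sample. Python 3.11.15, numpy 2.4.6 and pandas 2.3.3 were used. Counts over the replication-independent histone genes are not reported here. The counting functions were tested on simulated data. Alternatives were other flanks and overlaps, peak centres, wider peaks, lists of one length, 1 gene per peak and short genes only.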

Additional observations from a re-analysis of the deposited data

How the results depend on the processing

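Of 88 values recomputed under an alternative, 81 kept their direction and stayed within 1.5 times the main one. Reading peaks in the gene alone left 10 histone genes with a control-unique and 4 with a knockdown-unique peak, and a flank of 5 kb gave 19 with a knockdown-unique peak. With the wider 50% of each list, 12 had a control-unique peak, and the anti-ETO difference between knockdown and control was 8 genes. With the 4 lists at one length that difference was -4. Clusters numbered 7 with a gap of 250 kb. The causes were not tested. Lists of one length were not made for the shared and unique peaks. Shares of all protein-coding genes were not computed under the alternatives, so these counts have no background. Restricting the count to the 61 genes of at most 1 kb was added after the data were seen.

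No paired analysis was possible because the lists give no values per replicate, and leaving out a replicate was not possible for the same reason. The lists carry no read numbers, so the limit set by depth is unknown.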

Other observations

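Histone pseudogenes and tRNA genes lie among the histone genes and were read in the same way, after the main results were seen. Of 14 annotated histone pseudogenes, 7 had a control anti-ETO, 7 a knockdown anti-ETO, 5 a control anti-Flag and 6 a knockdown anti-Flag peak within 1 kb. In the same order, 41.0%, 47.7%, 43.7% and 36.3% of all protein-coding genes had one. For the 467 other protein-coding genes of at most 1 kb the shares were 7.49%, 9.42%, 9.64% and 8.78%. Differences from these shares were not tested. The pseudogenes with peaks included H4C10P, next to H2BC13, and H1-12P, next to H3C4, both with peaks in all 4 lists. Where an intact histone gene lies close by, as at these, a peak cannot be assigned to the pseudogene. H3C9P (chr6:26321876-26322292) had a peak in both anti-ETO lists. It lies beyond the end of the block with 32 genes (chr6:26017032-26285534). H2BC27P, H2BC2P, H2AC2P, H2AC3P and H2AC5P had no peak in any of the 4.

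The clusters also hold 98 annotated tRNA genes. Within 1 kb, 13 of them had a control anti-ETO peak (13.3%), 15 a knockdown anti-ETO peak (15.3%), 20 a control anti-Flag peak (20.4%) and 11 a knockdown anti-Flag peak (11.2%). Of 345 tRNA genes elsewhere in the genome, 36.2%, 42.6%, 38.6% and 31.3% had one. Peaks touching the tRNA gene itself were found at 1, 2, 4 and 1 of the 98 in the same order, and at 52, 67, 47 and 43 of the 345. No test was made of these differences, since tRNA genes of a cluster are not independent.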
